A study of Mus musculus with 16 samples.

Results

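The clustered protocadherins of the mouse are 57 protein-coding genes on chromosome 18 whose symbols start with Pcdha, Pcdhb or Pcdhg. They were chosen by symbol, from 21872 protein-coding genes among the 54453 genes of the table, without use of any measured value. There were 12 alpha, 22 beta, 12 gamma A and 6 gamma B genes and 5 C-type genes, the last being Pcdhac1, Pcdhac2, Pcdhgc3, Pcdhgc4 and Pcdhgc5. All lie on the plus strand of mm10, between base 36930184 and base 37841873 of chromosome 18. A single annotated name, Pcdha11, belonged to 2 genes, and the first of them, ENSMUSG00000007440, is called Pcdha10 here after the RefSeq gene at its place.

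Protocadherins of the clusters are adhesion proteins of the cell surface that bind the identical isoform on a neighbouring cell. Each alpha or gamma transcript joins a variable first exon, read from a promoter of its own, to constant exons that end the cluster, whereas beta genes have no constant exons. In neurons, a cell reads a small and partly random choice of these promoters, in which the insulator protein CTCF, cohesin and DNA methylation take part, and C-type genes are chosen in a less random way.

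Total RNA came from mouse embryonic fibroblasts (MEFs) of C57BL/6J embryos at E13.5, immortalised by passage through crisis. MEF-1 and MEF-2, the 2 parental lines, come from sibling embryos, a male for MEF-1 and a female for MEF-2, and 7 clonal lines of each were grown from sorted single cells, so that a clonal line stands for 1 founder cell. No engineered allele or treatment is given for any of the 16 lines, and each line had 1 library. Chromosomes 12, 18 and 19 are described as aneuploid in at least 1 of these lines, from the coverage of DNA methylation libraries that were not analysed here. The 7 clonal lines of a set were taken as its replicates, so that spread between clones and spread between libraries cannot be told apart. A difference between sets is one between 2 immortalised lines from 2 embryos. In it embryo, sex, the passage of each line through crisis and its chromosome numbers cannot be told apart.

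The deposited values are “regularised log” (rlog) values, log2 of a normalised count with the deviation of each line shrunken towards the average of the gene, most strongly where reads are few. The number of reads per library is unknown. A value of a bulk line does not tell more cells with a transcript from more transcript per cell. Of the 11 fibroblast markers, all had an average above 0. Their mean rlog value ran from 14.6 to 15.1 in MEF-1 and from 13.7 to 14.5 in MEF-2 clonal lines, without overlap. In MEF-2, 4 of them were lower, with differences of −4.74 for Dcn, −3.68 for Lum, −1.85 for Pdgfra and −0.60 for Col3a1, and 1, Thy1, was higher by 2.59 (limma). The mean of the 9 neuronal markers lay between 3.35 and 4.52, with Snap25 listed at 0 in every line. The neuronal mean ran from 3.35 to 3.73 in MEF-1 and from 3.90 to 4.52 in MEF-2 clonal lines, with 3 markers higher and 3 lower in MEF-2. The differences were 4.6 for Stmn2, 1.90 for Tubb3 and 0.60 for Map2, and −0.62 for Syp, −0.49 for Dcx and −0.225 for Elavl3 (limma). The part of either marker list in the results was not tested.

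Chromosome 18 as a whole differed among the MEF-1 clonal lines. The median deviation of 323 other genes of the chromosome was −0.46, −0.48 and −0.44 in MEF-1 clonal lines 1, 4 and 5, and between 0.07 and 0.16 in lines 2, 3, 6 and 7. The MEF-1 parental line was at −0.13. The MEF-2 clonal lines lay between 0.12 and 0.15 and their parental line at 0.13. MEF-2 exceeded MEF-1 clonal lines by 0.27 (n = 7 against 7, exact permutation test, two-sided, p = 0.0192), although MEF-1 lines 6 and 7 lay within or above the MEF-2 range. Without any 1 MEF-2 line, the exact permutation test gave p from 0.0845 to 0.0851. The counts of calls between the sets and of wide genes are given also with this median subtracted or without lines 1, 4 and 5.

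**Figure D1:**
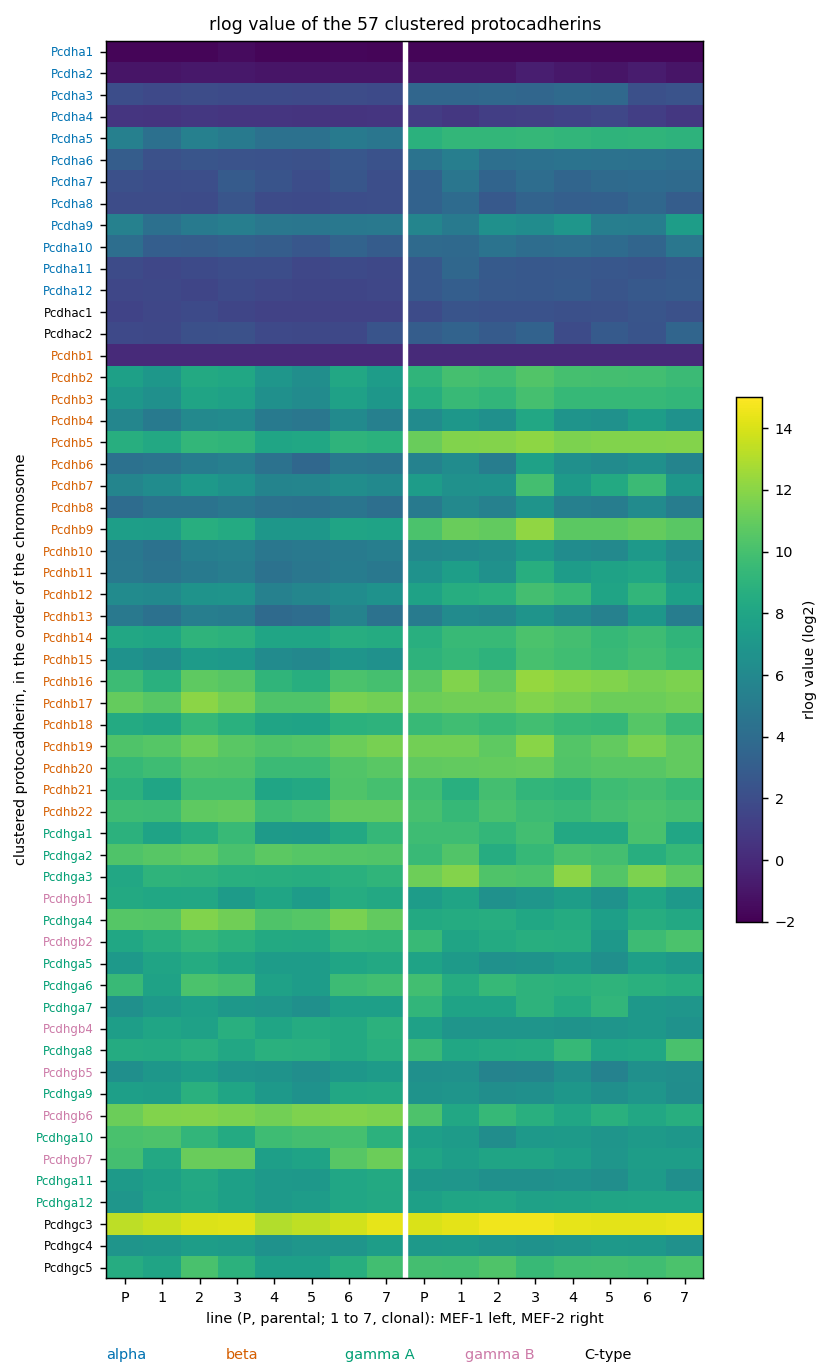
Heat map of the rlog value (log2, colour) of the 57 clustered protocadherins (rows, in the order of the chromosome) in the 16 lines (columns, P for parental and 1 to 7 for clonal lines, MEF-1 to the left of the white line and MEF-2 to the right). Pcdhgc3, with an average of 14.05, is bright in all lines, alpha genes are dark in MEF-1, and Pcdha5, Pcdhb5 and Pcdhga3 brighten in MEF-2 while Pcdhgb6 darkens.

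Between the 2 sets of clonal lines, most alpha and beta genes were higher in MEF-2, and most variable gamma genes were lower. Of the 57 genes, 54 had an average above 0 over the 16 lines and were tested. Each was above 0 in every line, but such a value does not show reads. Of the 54, 8 were without reads in 3 or more MEF-1 clonal lines and had reads in all MEF-2 lines, as described below. These 8 could thus pass the filter through MEF-2. Pcdha1 and Pcdha2 had averages below 0, and Pcdhb1 was listed at 0 in all lines. The fit covered all 15285 protein-coding genes with an average above 0. It called 45 of the 54 (limma, Benjamini-Hochberg adjusted p under 0.05), against a background of 56.1% of all genes tested. In MEF-2, 33 were higher and 12 lower, against backgrounds of 27.5% and 28.6%. Of the 362 other genes of chromosome 18, 52.8% were called, 41.7% higher and 11% lower. The 12 genes lower in MEF-2 were Pcdhb22 and 11 gamma genes.

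The differences of the clustered protocadherins were large in size. The median of the absolute difference was 1.21 on the log2 scale over the 54 genes, 0.375 over the other genes of chromosome 18 and 0.302 over all genes. In all, 27 clustered protocadherins were called and higher by 1 or more in MEF-2 (background 5%), and 8 were called and lower by 1 or more (background 7.87%). All 7 MEF-2 lines stood above all 7 MEF-1 lines for 22 genes (background 12.3%), and below them for 4 genes, Pcdhga4, Pcdhgb4, Pcdhgb6 and Pcdhga10 (background 13.6%). With the chromosome 18 median of each line subtracted, 31 genes were higher and 13 lower (backgrounds of 27.9% and 28.9%), and without MEF-1 lines 1, 4 and 5 these were 29 and 13 (backgrounds of 24.7% and 25.9%). Differences of 1 or more were called for 21 genes higher and 10 lower with the median subtracted (backgrounds of 4.57% and 7.92%), and for 19 and 11 without the 3 lines (backgrounds of 4.95% and 7.69%). MEF-2 lines stood above all MEF-1 lines for 17 genes and below them for 10 with the median subtracted (backgrounds of 11.9% and 13.7%), and for 22 and 11 without the 3 lines (backgrounds of 16.9% and 17%).

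Few single calls changed. With the median subtracted, Pcdha4 (0.26, adjusted p = 0.164) and Pcdhga7 (0.57, adjusted p = 0.14) lost their calls in the limma fit. Pcdha4 was without reads in 6 of the 7 MEF-1 clonal lines, as described below, so that the median was there subtracted from values without reads. Without MEF-1 lines 1, 4 and 5, the calls of Pcdha9, Pcdhb7, Pcdhga7 and Pcdhgc5 were lost, and Pcdha4 kept its call.

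**Figure D2:**
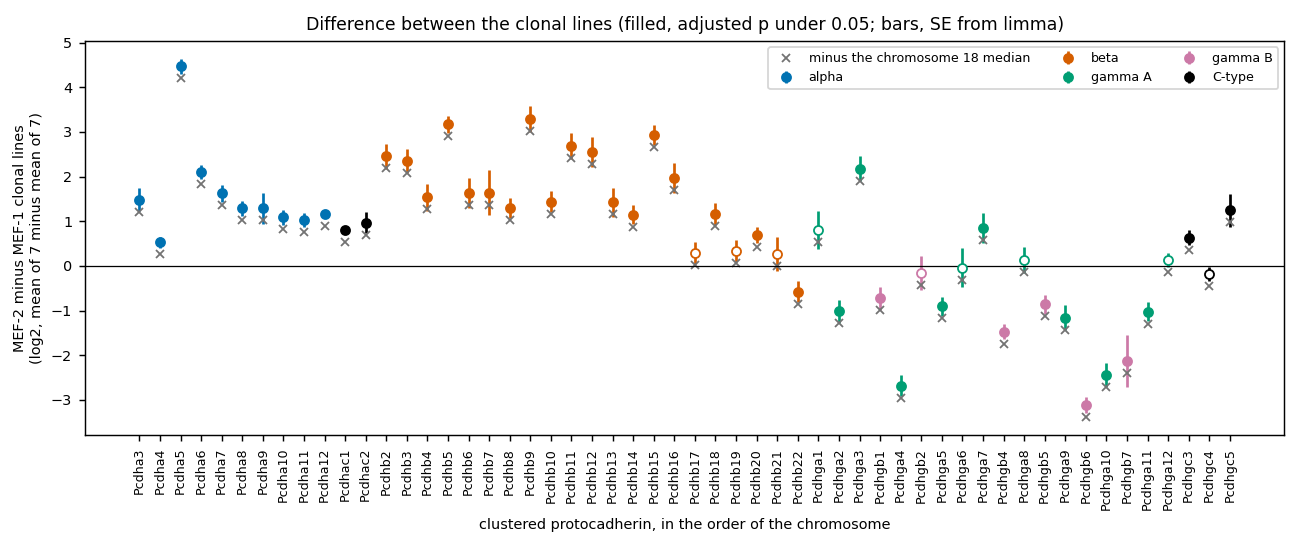
Difference between the MEF-2 and MEF-1 clonal lines (log2, mean of 7 minus mean of 7, bars SE from limma) for the 54 genes tested, in the order of the chromosome and coloured by cluster, with filled points for adjusted p under 0.05 and grey crosses for the difference after subtraction of the chromosome 18 median. Alpha genes lie between 0.53 and 4.47, most beta genes above 1, and gamma genes on both sides of 0, down to −3.12 for Pcdhgb6.

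All 10 alpha genes tested were higher in MEF-2, with a median difference of 1.29 and a range from 0.53 for Pcdha4 to 4.47. Once the chromosome 18 median was subtracted, 9 of them were higher, without Pcdha4. This count depends on the filter on the average. Pcdha1 and Pcdha2, which it left out, lacked reads in 7 and 4 of the 7 MEF-2 clonal lines. The largest difference of any clustered protocadherin was that of Pcdha5 (36960440 to 37187657), the alpha gene with the highest average. In MEF-1, Pcdha5 had an rlog value of 5.41 in the parental line and a lowest, median and highest value of 4.30, 4.67 and 5.40 in the clonal lines. In MEF-2, the parental line was at 8.88 and the clonal lines at 9.00, 9.21 and 9.35. The groups did not overlap, and all 8 MEF-2 lines exceeded all 8 MEF-1 lines by a wide margin. The difference of 4.47 ± 0.17 (SE, n = 7 against 7) had an adjusted p of 3.8e-11 in the limma fit.

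Pcdha9 (36997880 to 37187657) was the alpha gene with the widest spread among MEF-2 clones. The MEF-1 clonal lines lay at 4.27, 4.81 and 5.29 (lowest, median, highest), below their parental line at 5.44. The MEF-2 clonal lines lay at 5.00, 6.25 and 7.45 around their parental line at 5.71. MEF-2 lines 7 and 4 were the highest, whereas lines 1, 6 and 5 fell within the MEF-1 range, so that the groups overlapped. Pcdha9 was higher in MEF-2 by 1.29 ± 0.35 (SE, limma, adjusted p = 0.00559). Without MEF-1 lines 1, 4 and 5 it was higher by 1.11, with an adjusted p of 0.0525, so that the call was lost.

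Low alpha genes could be followed down to the level that the transformation gives to a gene without reads. Each line has such a level, set here from 2855 genes with an average below −2.2, and a line was taken as without reads where its values followed that level within 0.004. Such lines were recorded for a gene only where at least 4 of the 16 lines lay on the level. As a check, 4 Y-linked genes, Ddx3y, Uty, Kdm5d and Eif2s3y, were on the level in all 8 MEF-2 lines and in 0 MEF-1 lines. In all, 10 clustered protocadherins had such lines, namely 8 alpha genes, Pcdhac1 and Pcdhac2. In MEF-1, 46 of their 70 pairs of a gene and a clonal line (65.7%) were without reads, and in MEF-2 11 of 70 (15.7%). Over 2334 other genes with such lines and averages in the same span, the shares were 47.8% and 63.3%. That span ran from −1.74 for Pcdha1 to 3.44 for Pcdha6, and the other genes were not matched to the members within it. Of the members, only Pcdha1 and Pcdha2 averaged below 0. These backgrounds, and those given below for the same genes, may therefore differ from the members in level as well. MEF-1 lines 1, 4 and 5 held 26 of the 46 pairs, a share of 86.7% of their 30 pairs against 45.8% over the other genes. In the other 4 MEF-1 lines 20 of 40 pairs (50%) were without reads, against 49.3% over the other genes.

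Of these 10 genes, Pcdha1 and Pcdha2 alone lacked reads in a MEF-2 line. The other 8 genes, Pcdha3, Pcdha4, Pcdha6, Pcdha7, Pcdha8, Pcdha12, Pcdhac1 and Pcdhac2, had reads in all 7 MEF-2 clonal lines and none in 3 or more of the MEF-1 clonal lines (background 2.94% of 2344 genes, and 9.64% the other way round). The MEF-2 parental line had reads for these 8 genes too. The rule of at least 4 lines therefore placed 3 or more of their lines without reads among the MEF-1 clonal lines in advance. That number is thus no result about these genes, and it also fixed part of the MEF-1 share of 65.7% in advance. The backgrounds are under the same rule. In MEF-1 lines 2, 3, 6 and 7 alone, 2 of these 8 genes were without reads in 3 or more lines and 6 in 2 or more. The MEF-1 lines differed in which genes had reads assigned. Line 5 had reads for 0 of the 10 genes and line 4 for Pcdha7 alone. Line 3 had reads for 7 of them, among them Pcdha1, Pcdha7 and Pcdha12, and line 2 for 6, among them Pcdha3, Pcdha4 and Pcdha6. Lines 2 and 3 shared Pcdha2, Pcdhac1 and Pcdhac2. Pcdha4 had reads in line 2 alone of the MEF-1 lines. Without reads here means that the quantification assigned none, and much of these transcripts is shared with other genes, as described below. Lines with reads lay at unlike distances above the level. Pcdha4 was at 0.75 in line 2 and at 0.60 in line 3, without reads, and Pcdha7 at 2.86 in line 3 and at 2.11 in line 7, without reads. How many reads stand behind such values is unknown. A line without reads may still hold transcripts below the depth of its library, which is unknown.

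**Figure D3:**
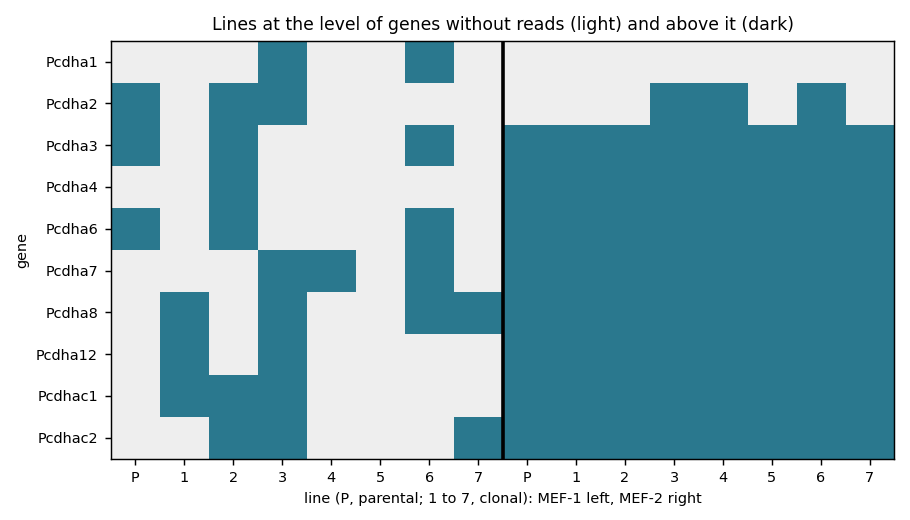
The 10 clustered protocadherins with lines at the level of genes without reads (rows) in the 16 lines (columns, P for parental and 1 to 7 for clonal lines, MEF-1 to the left of the black line). Light cells are at the level and dark cells above it. MEF-1 lines are mostly light, with 0 to 7 of 10 genes above the level, and MEF-2 lines mostly dark, with 8 or 9.

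Beta genes, which hold their whole protein in a single large exon (18 of 22 have 1 annotated exon), were mostly higher in MEF-2. Of the 21 tested, 17 were higher in MEF-2 and 1, Pcdhb22, was lower, with a median difference of 1.54. The difference followed the order of the cluster in part, as seen after the values were known and without a test. The 15 genes from Pcdhb2 to Pcdhb16 were all called and higher by between 1.15 and 3.29. Without MEF-1 lines 1, 4 and 5 the call of Pcdhb7 was lost (1.36, limma, adjusted p = 0.0967). The 6 genes from Pcdhb17 to Pcdhb22, next to the gamma cluster, lay between −0.58 and 1.15, and 3 of them, Pcdhb17, Pcdhb19 and Pcdhb21, were not called.

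Pcdhb9 (37400855 to 37403909) had the largest beta difference. Its MEF-1 parental line was at 7.53, with clonal lines at 6.98, 7.86 and 8.64 (lowest, median, highest). Its MEF-2 parental line was at 10.17, with clonal lines at 10.67, 10.90 and 12.18, the last being line 3, which stood apart from the other 6. The groups did not overlap, and the difference was 3.29 ± 0.29 (SE, limma, adjusted p = 2.6e-07). Pcdhb5 (37320381 to 37323915) was at 7.98, 8.89 and 9.24 in MEF-1 and at 11.64, 11.80 and 12.11 in MEF-2 clonal lines. Here too each MEF-2 line exceeded each MEF-1 line, and the spread among MEF-2 clones was small, with an SD of 0.14 against 0.53 in MEF-1. Pcdhb5 was higher in MEF-2 by 3.17 ± 0.19 (SE, limma, adjusted p = 5.0e-09).

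Pcdhb15, Pcdhb11 and Pcdhb12 followed. Pcdhb15 lay at 5.96, 6.59 and 7.34 in MEF-1 and at 8.98, 9.50 and 10.06 in MEF-2 clonal lines, a difference of 2.93 ± 0.22. Pcdhb11 lay at 4.39, 4.80 and 5.29 and at 6.59, 7.53 and 8.63, a difference of 2.69 ± 0.28. Neither gene overlapped between the sets. Pcdhb12 lay at 5.45, 6.29 and 6.77 and at 7.67, 8.79 and 9.94, again without overlap, and differed by 2.54 ± 0.33. The 3 adjusted p-values were 6.0e-08, 1.6e-06 and 1.6e-05 (limma).

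The beta gene with the highest average, Pcdhb17 (37484795 to 37489454), did not pass the test. It was at 10.29, 11.36 and 12.04 in MEF-1 and at 11.17, 11.34 and 11.75 in MEF-2 clonal lines. MEF-1 lines 1, 4 and 5 lay below all MEF-2 lines, and MEF-1 line 2 above them all. The difference of 0.29 ± 0.25 (SE, limma, adjusted p = 0.325) turned to −0.23 without MEF-1 lines 1, 4 and 5 (adjusted p = 0.178).

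Variable gamma genes went both ways. Of the 12 gamma A genes, 6 were lower in MEF-2 and 2, Pcdhga3 and Pcdhga7, higher, the call of Pcdhga7 being lost under both alternatives for chromosome 18. Of the 6 gamma B genes, 5 were lower, and the remaining gene, Pcdhgb2, was not called. The medians of the difference were −0.48 and −1.17. In the order of the chromosome, 6 genes in a row, Pcdhgb5, Pcdhga9, Pcdhgb6, Pcdhga10, Pcdhgb7 and Pcdhga11, were all lower, by between −0.86 and −3.12, as seen after the values were known. Further upstream, genes that were lower lay between others that were not. Pcdhga3 and Pcdhgb1, neighbours on the chromosome, differed by 2.18 and −0.73.

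Pcdhgb6 (37742094 to 37841873) had the largest difference towards MEF-1. Its MEF-1 parental line was at 11.18 and its clonal lines at 11.37, 11.69 and 11.87 (lowest, median, highest). Its MEF-2 parental line was at 10.24 and the MEF-2 clonal lines at 8.03, 8.67 and 9.39. The clonal lines did not overlap, and the MEF-2 parental line lay above all of its clones and below all MEF-1 lines. Pcdhgb6 was lower in MEF-2 by 3.12 ± 0.17 on the log2 scale, so that the difference was −3.12 (SE, limma, adjusted p = 2.2e-09).

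Pcdhga4 and Pcdhga10 were as distinct. Pcdhga4 was at 10.35, 10.91 and 11.75 in MEF-1 and at 7.57, 8.43 and 8.59 in MEF-2 clonal lines, a difference of −2.69 ± 0.24 (SE, limma, adjusted p = 2.7e-07). Pcdhga10 was at 8.39, 9.74 and 10.28 and at 6.37, 7.23 and 7.31, a difference of −2.44 ± 0.26 (adjusted p = 2.4e-06). Neither overlapped, and both parental lines lay with their own set, at 10.51 and 8.35 for Pcdhga4 and at 10.11 and 7.60 for Pcdhga10. Pcdhgb4, at 7.73, 8.34 and 8.89 against 6.65, 6.84 and 7.07, differed by −1.48 ± 0.17 (adjusted p = 3.7e-06), but its parental lines, at 7.56 and 7.74, were nearly level.

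The gamma A gene with the highest average, Pcdhga2, was at 10.09, 10.49 and 10.76 in MEF-1 and at 8.51, 9.41 and 10.37 in MEF-2 clonal lines. MEF-2 lines 1 and 4 fell among the MEF-1 lines and the other 5 below them. The difference was −1.02 ± 0.26 (SE, limma, adjusted p = 0.00368).

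C-type genes were mostly higher in MEF-2, 4 of the 5, and by less. Pcdhgc3 (37806364 to 37841873), the clustered protocadherin with the highest level, was at 13.31 in the MEF-1 parental line and at 13.04, 13.81 and 14.34 in the clonal lines. In MEF-2 it was at 14.05 in the parental line and at 14.28, 14.36 and 14.62 in the clonal lines. Only MEF-1 line 7 reached the MEF-2 range, and the difference was 0.63 ± 0.17 (SE, limma, adjusted p = 0.00537). Pcdhgc5 was at 7.59, 8.68 and 10.10 in MEF-1 and at 9.43, 9.85 and 10.31 in MEF-2 clonal lines, with MEF-1 lines 2 and 7 inside the MEF-2 range. It differed by 1.25 ± 0.37 (adjusted p = 0.00967), and by 0.53 with an adjusted p of 0.114 without MEF-1 lines 1, 4 and 5.

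Pcdhgc4 lay at 6.65, 7.02 and 7.49 in MEF-1 and at 6.60, 6.89 and 7.24 in MEF-2 clonal lines, with almost complete overlap. Its difference of −0.19 ± 0.16 (SE, limma, adjusted p = 0.326) became −0.46 (adjusted p = 0.0103) once the chromosome 18 median was subtracted. Pcdhac1 and Pcdhac2, near the level without reads in MEF-1, had medians of 1.38 and 1.73 there and of 2.27 and 2.90 in MEF-2, with differences of 0.80 ± 0.09 and 0.97 ± 0.24 (adjusted p = 4.3e-06 and 0.0032). The Pcdhac1 values did not overlap between sets, and those of Pcdhac2 did.

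The order of the genes within a line was compared per length, as the rlog value minus log2 of the summed exon length in kb. Constant exons shared by all alpha or all gamma genes are in these lengths. Among all members, Pcdhgc3 ranked first in 16 of 16 lines, between 10.58 and 12.17 on this scale. Of the alpha genes, Pcdha5 ranked first in 8 of 8 MEF-2 lines, and Pcdha5 or Pcdha9 in 4 MEF-1 lines each. Of the beta genes, Pcdhb17 led in 8 of 8 MEF-1 lines, whereas Pcdhb5 led in 7 MEF-2 lines and Pcdhb9 in 1. Of the gamma A and B genes, Pcdhgb6 led in 8 of 8 MEF-1 and Pcdhga3 in 8 of 8 MEF-2 lines. In the beta and gamma clusters the leading gene thus went with the set of lines rather than the clone, with the exception of 1 MEF-2 line.

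The spread between clones of a set was set against that of all genes of the same expression group. The SD over 7 clonal lines had a median of 0.445 in MEF-1 and 0.398 in MEF-2 over the 54 genes. Over all genes tested it was 0.199 and 0.164, and over the other genes of chromosome 18 it was 0.349 and 0.162. The chromosome 18 median was not subtracted for any SD given here. For the 35 members with an average between 3.75 and 9.95 (log2), the medians were 0.5 and 0.463, against 0.324 and 0.278 over the 4374 genes of that group. For the 8 members in the next group they were 0.497 and 0.383, against 0.156 and 0.128. The lowest group tested held 10 members, 8 alpha genes with Pcdhac1 and Pcdhac2. Their median was smaller than that of all genes in MEF-1, at 0.167 against 0.299, and larger in MEF-2, at 0.383 against 0.229. Of these 10 genes, 8 were without reads in 3 or more MEF-1 clonal lines, where values follow the level without reads. A small SD there does not show even expression between clones.

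A range of 2 or more, on the log2 scale, among the 7 clonal lines was found for 7 genes in MEF-1 (background 5.69%) and for 9 genes in MEF-2 (background 4.7%). Of these, 6 and 9 were in the group between 3.75 and 9.95, where the background was 12.9% and 11.4%. The MEF-1 genes were Pcdhb16, Pcdhb21, Pcdhga1, Pcdhga6, Pcdhga9, Pcdhgb7 and Pcdhgc5. The MEF-2 genes were Pcdha9, Pcdhb6, Pcdhb7, Pcdhb11, Pcdhb12, Pcdhga1, Pcdhgb2, Pcdhga7 and Pcdhga8, and Pcdhga1 was the single gene of both. Subtraction of the chromosome 18 median left 4 genes in MEF-1 (background 5.57%) and 9 in MEF-2 (background 4.69%). Without MEF-1 lines 1, 4 and 5, 0 genes were left in MEF-1, a count over 4 lines.

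In MEF-1, the widest genes split the clones in the way that chromosome 18 did. Pcdhgb7 (37751600 to 37841873) was at 8.28, 7.61 and 7.87 in lines 1, 4 and 5, and at 11.10, 11.11, 10.56 and 11.15 in lines 2, 3, 6 and 7. Its parental line lay between, at 9.93. The smallest gap between the 3 lines and the other 4 was 2.28 on the log2 scale. Pcdhga6 was at 7.78, 7.75 and 7.36 in lines 1, 4 and 5 and between 9.69 and 10.16 in the other 4, with a parental line at 9.49. Pcdhb21 was at 7.98, 7.98 and 8.28 in these lines and between 9.76 and 10.30 in the others, with a parental line at 8.90.

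The same 3 lines were the lowest 3 of the MEF-1 clones for 29 of the 54 genes, among them 19 of 21 beta genes. Over all genes tested this was so for 7.49%, and over the other genes of chromosome 18 for 68.5%. They were the highest 3 for 0 genes. The count was 2 of 10 for alpha, 4 of 12 for gamma A, 2 of 6 for gamma B and 2 of 5 for C-type genes. With the chromosome 18 median subtracted, Pcdhgb7, Pcdhga6 and Pcdhgc5 kept ranges of 2.94, 2.28 and 2.00, and Pcdhga10 came to 2.42, since it went the other way. In Pcdhga10, lines 3, 7 and 2 were lowest, at 8.39, 8.93 and 9.17, and line 1 was highest, at 10.28. Pcdhgc5 was lowest in lines 1, 4 and 5, at 7.90, 7.61 and 7.59, and highest in line 2, at 10.10. Pcdhga1 was lowest in lines 5, 4 and 1 and highest in line 3, at 9.43.

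**Figure D4:**
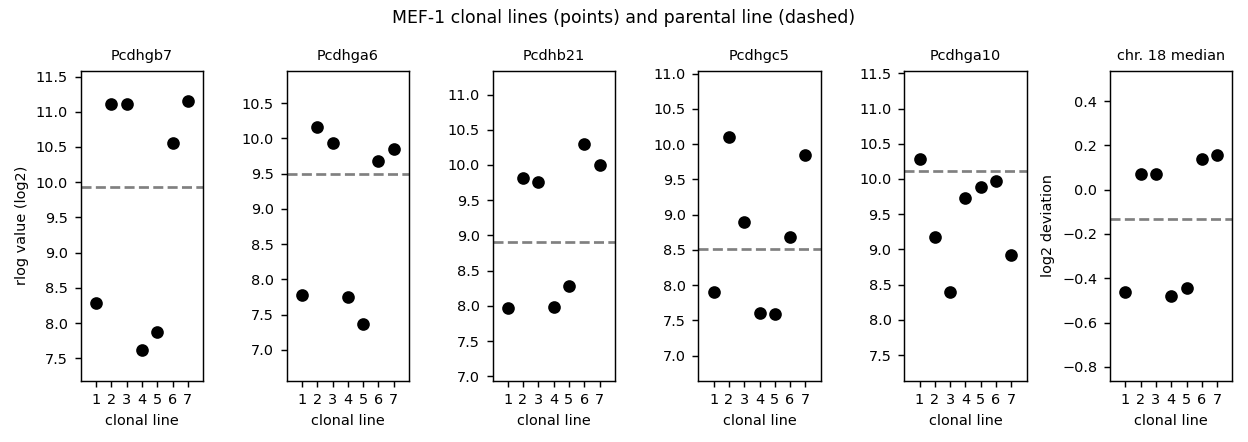
rlog values (log2) of Pcdhgb7, Pcdhga6, Pcdhb21, Pcdhgc5 and Pcdhga10 and the chromosome 18 median (log2 deviation) in the 7 MEF-1 clonal lines (points, numbered on the horizontal axis), with the parental line dashed; the gene panels span the same height. Lines 1, 4 and 5 lie low in the first 4 genes and in the chromosome 18 median, and not in Pcdhga10.

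In MEF-2, where the chromosome 18 median was level, the wide genes did not all share a single split. The wide beta genes Pcdhb6, Pcdhb7, Pcdhb11 and Pcdhb12 were all highest in line 3. A clonal line was counted as standing apart upwards for a gene where it lay 1 or more (log2) above the median of the other 6 lines of its set. This was so for 24 of 378 pairs of a gene and a MEF-2 line, against 1.48% of the pairs of all genes. It touched 14 of the 54 genes (background 7.26%). MEF-2 line 3 held 10 of the 24, with 8 beta genes, Pcdhb4, Pcdhb6, Pcdhb7, Pcdhb8, Pcdhb9, Pcdhb11, Pcdhb12 and Pcdhb19, and with Pcdhga1 and Pcdhga7. For all genes tested, the share standing apart in line 3 was 2.27%. Line 6 held 4, lines 4 and 7 held 3 each, lines 1 and 5 held 2 each, and line 2 held 0.

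Line 3 was the highest MEF-2 clone for 17 of the 21 beta genes, for 1 of the 10 alpha genes and for 0 gamma A, gamma B and C-type genes. How often it was the highest over all genes tested was not counted, so that these counts have no background. Pcdhb7 (37341702 to 37345202) had the widest range, with line 3 at 9.91, line 6 at 9.59 and line 5 at 8.35 above the other 4 lines, which lay from 6.57 to 7.26. Its parental line was at 7.41. Pcdhb6 lay at 7.71 in line 3 and between 5.19 and 6.54 in the other 6. The 2 beta genes thus shared line 3 and differed in line 6, where Pcdhb6 was at 6.53.

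The wide gamma and alpha genes were highest in lines other than line 3, though Pcdhga1 and Pcdhga7 stood apart there too. Pcdhgb2 (37689828 to 37841873) was highest in lines 7 and 6, at 10.19 and 9.62, lowest in line 5, at 7.07, and between 7.95 and 8.64 in the other 4. Pcdhga1 was at 10.11, 9.85 and 9.75 in lines 6, 3 and 1, at 9.23 in line 2, and between 8.06 and 8.26 in lines 4, 5 and 7. Pcdha9 led in lines 7 and 4, as Pcdhga8 did. Pcdhga3, the leading gamma gene per length in MEF-2, stood apart in lines 1, 4 and 6, at 11.83, 12.03 and 11.64.

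**Figure D5:**
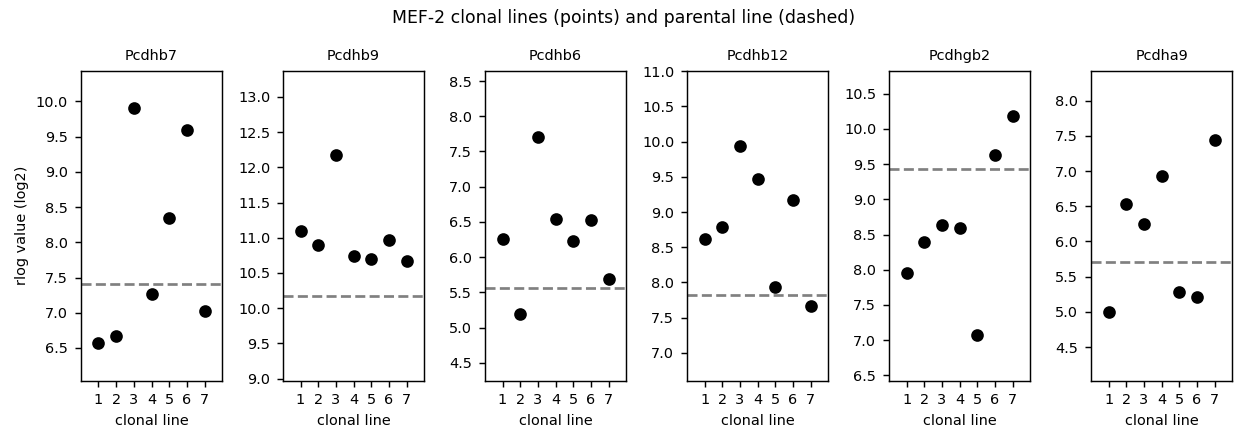
rlog values (log2) of Pcdhb7, Pcdhb9, Pcdhb6, Pcdhb12, Pcdhgb2 and Pcdha9 in the 7 MEF-2 clonal lines (points, numbered on the horizontal axis), with the parental line dashed; all panels span the same height. Line 3 is highest for the 4 beta genes, at 9.91, 12.18, 7.71 and 9.94, and line 7 for Pcdhgb2 and Pcdha9, at 10.19 and 7.45.

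In MEF-1, 19 of 378 pairs stood apart upwards, against 1.94% of the pairs of all genes, and they touched 12 genes (background 9.81%). Lines 2, 3, 6 and 7 held 9, 4, 2 and 4 of them, and lines 1, 4 and 5 held 0. All of these MEF-1 pairs thus lay in the 4 lines with the higher chromosome 18 medians. With the chromosome 18 median subtracted 8 pairs were left, and without lines 1, 4 and 5 there were 2. The share over all genes was not computed under these settings, so that no excess over all genes can be read from the 8 and 2 pairs.

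Each parental line was set against the range of its own clonal lines. For 40 of the 54 genes the MEF-1 parental line lay within the range of its clonal lines (background 59.1%), and for 32 the MEF-2 parental line did (background 65.8%). The MEF-1 parental line exceeded all 7 clones for 5 alpha genes, Pcdha3, Pcdha5, Pcdha6, Pcdha9 and Pcdha10 (background 20.2%), and for no other member, and it lay below all clones for 9 beta and gamma genes (background 20.8%). The MEF-2 parental line lay below all 7 clones for 16 genes, 11 of them beta genes (background 18.5%), and above all clones for 6, all of them gamma A or B genes (background 15.8%). The gamma A genes went both ways here, with Pcdhga12 below and Pcdhga5, Pcdhga6 and Pcdhga10 above. In Pcdhb5, for instance, the MEF-2 parental line was at 11.09 and the lowest clone at 11.64. A parental line has 1 library, so that none of this was tested.

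Reads of these genes are not easily told apart. Of the stretches of 31 bases in the transcripts of a gene, those found in no other gene made up between 77.5% and 100% in beta genes (median 88.2%) and between 32.5% and 67% in the variable gamma genes (median 53.6%). In alpha genes, they made up between 9.32%, in Pcdha4, and 54.5% (median 35.9%). Reads of the shared constant exons were divided among genes by the quantification of the authors, and values of genes in the same alpha or gamma cluster are to that extent not independent. The gamma transcripts also shared such stretches with Pcdhgb8, which the annotation lists as a polymorphic pseudogene, and with read-through gene models that span the clusters.

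Of the 28 regulators of the clusters that were listed, all were expressed. In MEF-2, 11 were higher and 4 lower (backgrounds of 27.5% and 28.6%), with a median difference of 0.07. Uhrf1, which recruits the maintenance DNA methyltransferase, had the largest difference, at 10.65, 11.42 and 12.15 in MEF-1 and at 11.99, 12.65 and 12.89 in MEF-2 clonal lines, higher by 1.15 ± 0.21 (SE, limma, adjusted p = 0.00027). The groups overlapped in a narrow span. Dnmt3a, a de novo DNA methyltransferase, did not overlap, at 11.83, 11.99 and 12.35 against 12.51, 12.87 and 13.02, and was higher by 0.80 (adjusted p = 3.8e-06), but by 0.18 (adjusted p = 0.104) with the median of its own chromosome, 12, subtracted. Trim28, a corepressor, was higher by 0.55. Lower in MEF-2 were the cohesin subunit Smc3, with a difference of −0.31, the histone methyltransferase Ehmt2, with −0.30, and the cohesin loader Mau2, with −0.24. The Smc3 difference turned to 0.07 (limma, adjusted p = 0.222) with the median of its own chromosome, 19, subtracted.

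Among 20 listed partners in protocadherin signalling, 10 were higher and 4 lower in MEF-2 (backgrounds of 27.5% and 28.6%). Higher were the kinases Ptk2b, by 1.15 ± 0.40 (SE, limma, adjusted p = 0.0227, and 0.144 without MEF-1 lines 1, 4 and 5), and Fyn, by 0.64 ± 0.12 (adjusted p = 0.000435), and the actin regulator Wasf1, by 0.78 ± 0.06 (adjusted p = 3.0e-08). Lower were Nlgn1, a neuroligin, with a difference of −1.22 ± 0.40, Cyfip2, of the same actin-regulating complex as Wasf1, with −0.70 ± 0.23, and Axin1, a scaffold of Wnt signalling, with −0.47 ± 0.07. Of these, Wasf1 and Axin1 did not overlap between the sets of clonal lines, with medians of 10.10 and 10.80 and of 12.85 and 12.32.

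Of 21 listed protocadherins and related cadherins outside the clusters, 19 were tested, and 5 were higher and 7 lower in MEF-2, shares near the backgrounds of 27.5% and 28.6%. Pcdh7 was at 7.65, 8.79 and 11.43 in MEF-1 and at 11.22, 11.59 and 11.95 in MEF-2 clonal lines, higher by 2.70 ± 0.46 (SE, limma, adjusted p = 0.000176). The X-linked Pcdh19 and Pcdh11x were higher by 2.05 and 1.59. Lower were Dchs2, Pcdh10 and Pcdh9, with differences of −2.21, −1.85 and −1.01, and of these 3 Dchs2 and Pcdh9 did not overlap between the sets.

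The 43 neighbours within 1 Mb of the clusters differed by less. Of the 37 tested, 11 were higher and 4 lower in MEF-2, with a median difference of 0.19, against 27.5% and 28.6% of all genes and 41.7% and 11% of the other genes of chromosome 18. Taf7 and Slc25a2, between the beta and the gamma cluster, were not called, with differences of 0.15 ± 0.12 and 0.00 ± 0.15 (SE, limma, adjusted p = 0.307 and 0.990). They were named after their values were seen, for their place. Diaph1, a formin, and Gnpda1, an enzyme of amino sugars, both downstream of the gamma cluster, were higher by 0.86 and 0.80, and Cystm1 by 0.54, a difference that fell to 0.27 (adjusted p = 0.192) with the chromosome 18 median subtracted. Arap3, a regulator of small GTPases, Nrg2, a neuregulin, and Pcdh1 were lower, with differences of −1.88, −1.48 and −0.72.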

How the data were processed

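Per the labels and the methods of the study, total RNA was depleted of ribosomal RNA, made into stranded libraries and sequenced as paired-end reads. The authors trimmed the reads (Trim Galore 0.6.0), quantified transcripts with Salmon 1.5.2 on mm10 with Ensembl release 102, and deposited log2 values from the rlog transformation of DESeq2 1.24.0, 1 per gene and line, without counts. How transcripts were summed into genes is not given in the sources used here.

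Genes were matched by identifier to GENCODE mouse release 21 (mm10), which held 54200 of 54453, with coordinates counted from 1. Protein-coding genes with an average above 0 were fitted with limma 3.58.1 (R 4.3.3, trended variance) on the values as deposited, 7 MEF-2 against 7 MEF-1 clonal lines, and adjusted by Benjamini-Hochberg over all 15285. As planned for log2 values, no count model was used. The chromosome 18 median was taken per line over its genes above the 40th percentile other than the members, as deviation from the mean of the 14 clonal lines, centred on the autosomal median.

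The rule for the members used symbols and no measured value, but it, the lists and the tests were chosen with earlier results of these data known. Named members are the highest on average in the alpha, beta, gamma A and gamma B clusters, the C-type genes, the 5 with the widest range in each set and the 5 with the largest difference in each direction, and of each other list up to 3 called genes per direction. Members beyond this rule are named where a count is listed. Scripts in Python 3.11.15 were tested on simulated data. DNA methylation data were not analysed here.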

Additional observations from a re-analysis of the deposited data

Results flagged for a closer look

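In 4 of 100 sets of 7 clonal lines examined, 1 line lay far from the others by Dixon's test, while chance gives about 1 in 20. Pcdhb9 was at 12.18 in MEF-2 line 3, with the next line at 11.09. Pcdhgb6 was at 11.37 in MEF-1 line 4, below the next line at 11.67. Of the other genes, Mau2 was at 12.80 in MEF-2 line 3, with the next line at 12.58, and Nlgn1 at 2.56 in MEF-2 line 1, with the next line at 1.95.

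For 6 genes, every MEF-1 clonal line moved one way from its parental line and every MEF-2 clonal line the other way. Whether the sets differ in this was not tested, each parental line having 1 library. The mean of the clonal lines minus the parental line was −0.70 in MEF-1 and 0.31 in MEF-2 for Pcdha5. For Pcdhgb6 it was 0.51 and −1.67, and for Pcdhgb4 0.76 and −0.90. Of the genes outside the clusters, Pcdh9 was at 0.66 and −0.58, Gnpda1 at −0.33 and 0.28, and Nrg2 at 0.68 and −0.35.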

How the results depend on the processing

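The number of clustered protocadherins called, 45, stayed within 1.5 times under each alternative run. It was 44 with the clone number as a replicate block, 43 with exact permutation tests and 42 to 45 with 1 clonal line left out. Clone numbers do not pair cells. Same-numbered lines had correlations of deviations from −0.133 to 0.2, over 0.1 in 2 of 7 pairs, and 1 MEF-1 line correlated best with its own number. The chromosome 18 difference ran from 0.21 to 0.32 with 1 line left out, and without any 1 MEF-2 line the exact permutation test gave p from 0.0845 to 0.0851. Lines 1, 4 and 5 were left out, the tolerance of the level without reads was varied, and the counts of large differences and of groups without overlap were repeated with the chromosome median subtracted, after the data were seen. The tolerance moved 46 pairs to 44 and 11 to 10 at most.

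Wide members depended on the limit. A limit of 1 gave 36 members for MEF-1 and 34 for MEF-2, and a limit of 4 gave 0 for both. The MEF-1 count of 7 was 4 with the chromosome median subtracted, 0 without lines 1, 4 and 5, and 5 to 7 with 1 line left out, and the MEF-2 count 6 to 9. Pairs standing apart by 2 or more numbered 0 for MEF-1 and 2 for MEF-2. The MEF-1 pairs were 8 with the chromosome median subtracted and 2 without lines 1, 4 and 5, both without a background.

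Some differences changed sign. Without lines 1, 4 and 5, Pcdhb17 came to −0.23 and Pcdhb21 to −0.54, and with the chromosome median subtracted Pcdhb21 came to −0.0030 and Smc3, which was called before, to 0.068. The difference of Pcdhga6 went from −0.045 to 0.0051 with parental lines added and ran from −0.31 to 0.16 with 1 line left out, and Pcdhgb2 went from −0.16 to 0.019 and ran from −0.42 to 0.10. None of the values with the changed sign passed the threshold. Without lines 1, 4 and 5 Pcdhga6 kept its sign and passed it, at −1.02 (limma, adjusted p = 0.000271). The cause of these changes was not tested.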
